A study of Mus musculus with 2 samples.

Results

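The 10 genes described here encode the MHC class I antigen presentation pathway of the mouse: the class I heavy chains H2-K1 and H2-D1, their light chain B2m, the peptide transporter subunits Tap1 and Tap2, the loading protein Tapbp, the immunoproteasome subunits Psmb8, Psmb9 and Psmb10, and the transactivator Nlrc5. They were chosen by gene symbol, without use of any measured value, and all 10 were found among 55401 gene rows. All 10 also reached a mean of 1 FPKM (fragments per kilobase of gene length, scaled to the depth of the library), a level shared by 12526 rows. RNA was sequenced from myeloid-derived suppressor cells (MDSCs), immature myeloid cells that hold back T cell responses, which were taken by magnetic bead isolation from C57BL/6 mice carrying tumours of the mouse colon carcinoma line MC38 and then kept with MC38 cells for 24 h. One library came from Mettl3fl/fl mice, whose Mettl3 alleles are flanked by loxP sites but intact without Cre, and 1 came from LysM-cre, Mettl3fl/fl mice. Both genotypes thus carried the floxed alleles, and the design text gives an age of 8 weeks. LysM-cre is expressed from the lysozyme 2 locus in granulocytes, monocytes and macrophages, so other cell types in the isolate would keep Mettl3. Mettl3 is the catalytic subunit of the complex that writes N6-methyladenosine on messenger RNA. For the LysM-cre sample 1 of the label fields reads MC39 instead of MC38. How many mice gave cells to each library, and whether they were pooled, is not stated in the labels.

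Class I molecules display peptides from inside the cell to CD8+ T cells. The proteasome cuts proteins into peptides, and in haematopoietic cells and under interferon-gamma its 3 constitutive catalytic subunits are exchanged for Psmb8, Psmb9 and Psmb10, which favours peptide ends that fit class I grooves. The Tap1-Tap2 transporter moves peptides into the endoplasmic reticulum, where Tapbp (tapasin) holds empty heavy chain and B2m next to it until a peptide binds. Nlrc5 is recruited to class I promoters by DNA-binding factors of the RFX, CREB/ATF and NF-Y families and drives most genes of the pathway, as its relative Ciita does for class II. Myeloid suppressor cells use this pathway to show antigen to the T cells they hold back.

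Promoter sequences are shown because several of these genes share promoter elements or a promoter, and their ratios can be read side by side with them. A part of any promoter element in these ratios was not tested. RefSeq promoter windows (GRCm38.p6, 250 bases before to 50 bases after the listed start) were found for 8 of the 10 genes, all except Tap2 and Nlrc5. The windows below are those of H2-K1 (chr17:34000298-34000597, minus strand), H2-D1 (chr17:35262844-35263143, plus), B2m (chr2:122147437-122147736, plus), Tap1 (chr17:34187306-34187605, plus) and Tapbp (chr17:33919228-33919527, plus), each printed 5′ to 3′ on the strand of the gene. Capitals mark matches, on either strand, to 5 short motifs that were chosen with these sequences in view: a kappaB-like GGGATTCCC, an ISRE-like GAANNGAAA, a GAS-like TTCNNNGAA, a CRE-like TGACG and a CCAAT box ATTGG.
H2-K1: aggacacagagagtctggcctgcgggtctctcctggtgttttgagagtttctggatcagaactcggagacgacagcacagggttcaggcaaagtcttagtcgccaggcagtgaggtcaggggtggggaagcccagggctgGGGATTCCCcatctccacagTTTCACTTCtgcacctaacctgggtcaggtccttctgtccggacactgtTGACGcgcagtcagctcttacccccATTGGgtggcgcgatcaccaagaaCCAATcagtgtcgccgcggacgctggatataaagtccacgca
H2-D1: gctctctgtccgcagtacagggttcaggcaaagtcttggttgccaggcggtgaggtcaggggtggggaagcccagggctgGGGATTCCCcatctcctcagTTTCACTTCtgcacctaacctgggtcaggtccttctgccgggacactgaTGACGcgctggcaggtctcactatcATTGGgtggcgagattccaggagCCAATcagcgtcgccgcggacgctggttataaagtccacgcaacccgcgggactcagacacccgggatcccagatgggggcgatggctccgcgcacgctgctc
B2m: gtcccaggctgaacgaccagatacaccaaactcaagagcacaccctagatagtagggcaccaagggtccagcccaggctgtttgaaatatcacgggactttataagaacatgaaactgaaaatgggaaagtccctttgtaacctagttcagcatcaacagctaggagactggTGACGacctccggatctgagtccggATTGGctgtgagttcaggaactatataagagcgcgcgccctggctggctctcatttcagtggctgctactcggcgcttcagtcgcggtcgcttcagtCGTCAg
Tap1: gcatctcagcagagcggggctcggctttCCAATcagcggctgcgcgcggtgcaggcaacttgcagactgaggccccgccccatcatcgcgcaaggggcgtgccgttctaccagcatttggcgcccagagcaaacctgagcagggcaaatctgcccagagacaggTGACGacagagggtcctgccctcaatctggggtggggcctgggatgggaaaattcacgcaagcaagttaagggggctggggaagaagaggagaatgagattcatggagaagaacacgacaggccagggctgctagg
Tapbp: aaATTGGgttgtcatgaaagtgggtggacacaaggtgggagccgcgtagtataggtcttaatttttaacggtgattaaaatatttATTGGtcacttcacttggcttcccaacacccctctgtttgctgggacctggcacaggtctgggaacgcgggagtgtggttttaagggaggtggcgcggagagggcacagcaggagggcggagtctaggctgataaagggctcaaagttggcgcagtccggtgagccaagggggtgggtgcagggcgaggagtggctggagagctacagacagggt
The kappaB-like match stood in the H2-K1 and H2-D1 windows and in 0.353% of all 32851 promoter windows. The ISRE-like match also stood in H2-K1 and H2-D1 (7.52% of all windows), at the same distance from the kappaB-like match in both. Over the 239 bases that could be aligned, the windows of these heavy chain genes were identical at 211 (88.3%). The CRE-like match, letters to which CREB/ATF factors bind, stood in H2-K1, H2-D1, B2m, Tap1 and Psmb9, 5 of 8 windows against 20.8% of all windows. The CCAAT box, bound by NF-Y, stood in these 5 and in Tapbp, 6 of 8 against 37.4% of all. A GAS-like match stood in Psmb8 alone among the 8 (8.30% of all windows). Tap1 and Psmb9 are transcribed away from each other from starts 226 bases apart, and their windows share 275 bases, so the Tap1 sequence above also shows most of the Psmb9 window on the opposite strand. The overlapping pair was therefore counted as 2 windows although it is nearly 1 sequence. A match is a description of letters and not evidence of binding, and the lack of a match is not evidence that an element is absent. The B2m window holds GAAACTGAAA and GGGAAAGTCCC. These resemble the ISRE-like and kappaB-like motifs but differ from the letters searched, so they were neither counted nor marked.

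Depth was nearly equal, with 59506878 counts in the Mettl3fl/fl library (called the control below) and 59393864 in the one labelled LysM-cre (the Cre-labelled library). Each genotype has 1 library, so no difference has a replicate check, no test was possible, and the 95% intervals of CPM ratios (CPM being the count relative to the library total) compare these libraries and cover counting error only. Mettl3 itself stood at 4.16 FPKM in the control against 3.92 in the Cre-labelled library (CPM ratio 0.945, 0.876 to 1.02), so the whole-gene value does not separate the genotypes, and the second library is named by its label throughout. Lyz2, the locus that carries LysM-cre, stood at 5400 and 3006 FPKM (0.557, 0.554 to 0.559). All 10 myeloid and MDSC markers were present, with a summed level of 14776 FPKM in the control against 11372 in the Cre-labelled library, 8 of 10 lower in the latter. Without Lyz2, which made up most of the difference, the other 9 summed to 9376 and 8365 FPKM. Markers of other cells were present too. Their summed levels over each whole list, with directions for the markers that reached 1 FPKM, were (control, then Cre-labelled) 3323 and 2117 FPKM for B and plasma cells (9 of 10 lower, and 220.4 and 202 without Ighm and Jchain), 320 and 332 for T and NK cells (5 of 8 lower), 2253 and 2534 for macrophages (9 of 10 higher), and 101 and 107 for dendritic cells (4 of 6 lower). They were 672 and 895 for eosinophils (8 of 8 higher), 986 and 1381 for erythroid cells and platelets (6 of 7 higher) and 4.02 and 4.19 for epithelial cells (1 of 2 higher), where 5 of 7 markers were below the minimum and Krt19 was listed at 0 in both libraries. Both sums with genes left out were chosen after seeing the data. Nearly every nucleated cell makes class I molecules, so the levels below are sums over all these cells. In such bulk RNA fewer cells of a type and less RNA per cell cannot be told apart, and the part of cell composition in each result below was not tested.

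As a group, the class I pathway genes lay close to the same level in both libraries, with Tapbp standing apart. In the Cre-labelled library 8 of 10 genes were lower (49.7% of all 12526 genes were) and 2 were higher (50.3%), and the median log2 ratio of FPKM + 1 was −0.05 against 0.00 over all genes. The higher genes were H2-K1 and Psmb8, both within 1% of equal, and each was lower when FPKM was rescaled to TPM. One gene, Tapbp, was at least 20% lower in FPKM + 1 (7.7% of all genes were), and 0 were at least 25% higher, the same fold in the other direction (8.41% of all genes). At 1.5-fold the counts were 0 lower (3.28% of all genes) and 0 higher (3.19%), and at 2-fold again 0 lower (1.18%) and 0 higher (1.31%). The counting interval lay wholly below 1 for 6 genes (29.7% of all genes), wholly above 1 for 0 (30.1%), and spanned 1 for H2-K1, B2m, Tap2 and Psmb8. At this depth the intervals of abundant genes are narrow, so differences of a few percent fall outside them. Together the 10 genes took 0.877% of all counts in the control against 0.851% in the Cre-labelled library.

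**Figure D1:**
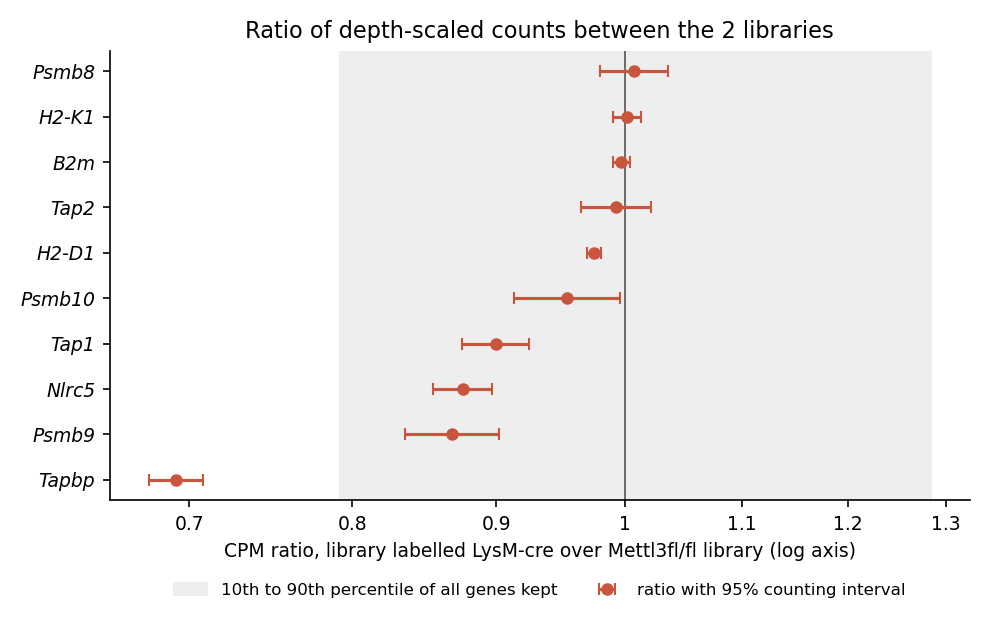
CPM ratio of each class I pathway gene, library labelled LysM-cre over Mettl3fl/fl library, on a log axis. Points are ratios of 1 library over 1 library, bars are exact 95% counting intervals, and the grey band is the 10th to 90th percentile of all 12526 genes kept (0.792 to 1.28). Tapbp at 0.692 is the only point outside the band, and the other 9 run from 0.868 (Psmb9) to 1.01 (Psmb8).

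The heavy and light chains were the most abundant transcripts of the pathway and differed by less than 3% between libraries. H2-K1 (ENSMUSG00000061232, chr17:33996017-34000347, minus strand) stood at 303.5 FPKM in the control against 304.2 in the Cre-labelled library, on 59588 and 59571 counts (CPM ratio 1.00, 0.990 to 1.01). H2-D1 (ENSMUSG00000073411, chr17:35262730-35267499, plus) stood at 1248 and 1217 FPKM, on 215102 and 209253 counts (0.975, 0.969 to 0.981). B2m (ENSMUSG00000060802, chr2:122147686-122153083, plus), which pairs with every classical heavy chain and with most class I-like ones, stood at 3010 and 3002 FPKM on 172969 and 172091 counts (0.997, 0.990 to 1.00). The heavy chains, whose promoter windows were identical at 88.3% of the aligned bases, had ratios within 3% of 1, as did B2m. H2-D1 was the only one of the 3 whose interval excluded 1. Tap2 (0.992) and Psmb8 (1.01) also lay within 3% of 1, and a part of the promoters in these ratios was not tested. B2m ranked 8 and H2-D1 ranked 31 among all 55401 rows by mean FPKM. In FPKM, B2m exceeded the sum of H2-K1 and H2-D1 1.94-fold in the control against 1.97-fold in the Cre-labelled library. H2-D1 exceeded H2-K1 4.11-fold and 4.0-fold.

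Class I heavy chain genes resemble each other, and reads that fit several rows could be divided among them in a way that the labels and headers do not give. In the GENCODE M21 transcripts, 0 of the 150-base stretches of H2-K1 occurred in another gene. For H2-D1, 35 of 2591 (1.35%) did, all of them shared with H2-Q1. The other 8 genes shared 0. Reads are 150 bases from each end, so exact sharing over a full read was rare for both heavy chains, and shorter or mismatched alignments were not examined. The related genes H2-Q6 (5.99%) and H2-Q7 (5.90%) shared more, mostly with each other and with H2-Q10.

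Transport and loading held the largest difference. Tapbp (ENSMUSG00000024308, chr17:33915899-33926197, plus), the tapasin gene, stood at 79.9 FPKM in the control against 55.4 in the Cre-labelled library, on 19372 and 13389 counts. Its CPM ratio was 0.692 (0.677 to 0.708) and its log2 ratio of −0.52 lay at percentile 3.86 of all genes kept. Tap1 (ENSMUSG00000037321, chr17:34187553-34197225, plus), the first subunit of the transporter, stood at 29.6 and 26.7 FPKM on 10846 and 9738 counts (0.900, 0.875 to 0.925). Tap2 (ENSMUSG00000024339, chr17:34203527-34216321, plus), the subunit that pairs with it, stood at 38.4 and 38.1 FPKM on 9694 and 9602 counts (0.992, 0.965 to 1.02). The 2 subunits of 1 transporter therefore did not keep the same ratio to each other: Tap2 over Tap1 in FPKM was 1.29 in the control against 1.43 in the Cre-labelled library. Tapbp over Tap2 went from 2.08 to 1.45, and Tapbp over its relative Tapbpl, a peptide editor outside the loading complex, was 3.15 and 2.28.

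Part of the Tapbp row coincides with other genes. The row begins upstream of the RefSeq start of Tapbp at base 33919478 and contains the whole of Zbtb22, a zinc finger gene on the same strand (3422 bases), which stood at 3267 and 2931 counts (0.899, 0.855 to 0.945). With the counts of both rows summed the ratio was 0.722 (0.708 to 0.737). On the opposite strand, Gm19412 (chr17:33919279-33920485) overlaps the Tapbp promoter window and stood at 7 counts in the control against 83 in the Cre-labelled library (CPM ratio 11.9, 5.52 to 30.5). Those counts are few beside the 19372 and 13389 of Tapbp, and summing them with Tapbp gave 0.697 (0.681 to 0.712). The labels and headers do not say how reads in overlapping rows were assigned or whether strand was used.

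**Figure D2:**
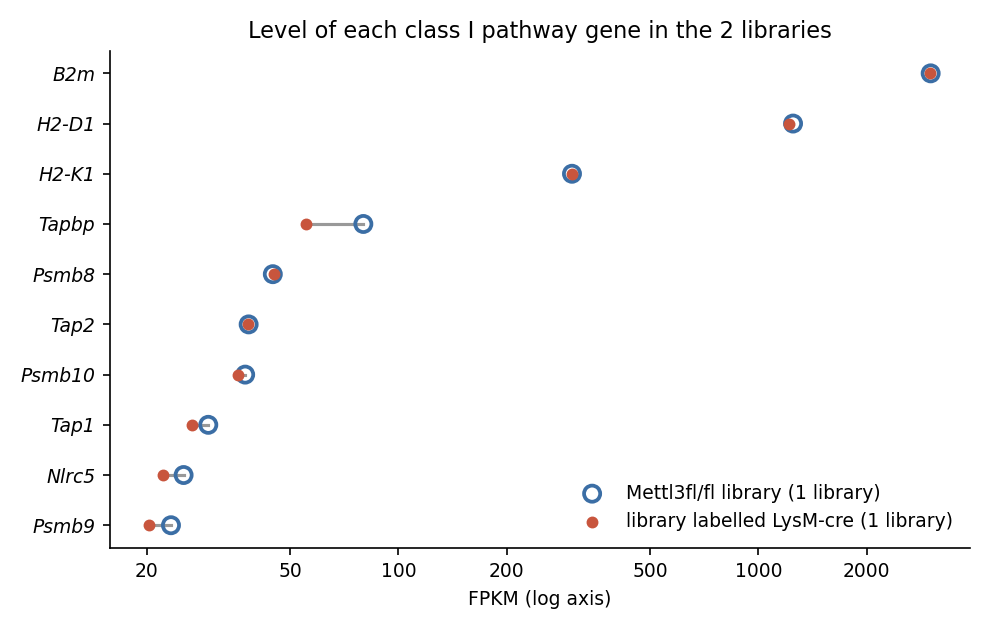
Level of each class I pathway gene in FPKM (log axis) in the Mettl3fl/fl library (open circles) and the library labelled LysM-cre (filled points), 1 library each, with a grey line joining the pair. The points nearly coincide for B2m, H2-K1, Tap2 and Psmb8, and the widest gap is that of Tapbp (79.9 and 55.4 FPKM).

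Other proteins of loading and peptide trimming did not follow Tapbp. Of 11 listed, 6 were higher and 5 lower in the Cre-labelled library (log2 median 0.00). At least 20% lower were 0 of them (7.7% of all genes), and at least 25% higher 0 (8.41%). Calr, the chaperone calreticulin of the loading complex, stood at 135 FPKM in the control against 163 in the Cre-labelled library (CPM ratio 1.20, 1.18 to 1.22). Pdia3, its disulfide isomerase partner, stood at 108 and 122 (1.13, 1.11 to 1.15). These 2 partners of tapasin were thus higher in the library in which Tapbp was lower. Canx (calnexin), which folds new heavy chains, stood at 54.1 and 58.7 FPKM (1.08, 1.06 to 1.11). The general chaperone gene Hspa5 stood at 92.5 and 114 FPKM (1.23, 1.21 to 1.251). Erap1, the aminopeptidase that trims peptides in the endoplasmic reticulum, stood at 14.2 and 13.4 FPKM (0.940, 0.909 to 0.973), and Tapbpl at 25.4 and 24.3 (0.957, 0.916 to 1.00).

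The immunoproteasome subunits divided by gene. Psmb8 (ENSMUSG00000024338, chr17:34197721-34201454, plus), the chymotrypsin-like subunit, stood at 44.8 FPKM in the control against 45.1 in the Cre-labelled library, on 10118 and 10172 counts (CPM ratio 1.01, 0.980 to 1.04). Psmb9 (ENSMUSG00000096727, chr17:34181987-34187764, minus), which takes the place of the caspase-like subunit, stood at 23.3 and 20.3 FPKM on 5711 and 4948 counts (0.868, 0.835 to 0.902). Psmb10 (ENSMUSG00000031897, chr8:105935735-105938104, minus), the trypsin-like subunit and the only one outside the MHC, stood at 37.5 and 35.8 FPKM on 4278 and 4071 counts (0.953, 0.913 to 0.995). Psmb9 and Psmb10 had intervals below 1 and Psmb8 did not. These subunits can be incorporated together into new proteasomes.

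Each immunoproteasome subunit was set beside the constitutive subunit it replaces. Psmb5, replaced by Psmb8, stood at 25.7 FPKM in the control against 22.7 in the Cre-labelled library (CPM ratio 0.882, 0.820 to 0.95). Psmb6, replaced by Psmb9, stood at 28.8 and 28.6 (0.993, 0.948 to 1.04), and Psmb7, replaced by Psmb10, at 14.6 and 15.6 (1.07, 1.02 to 1.12). The immuno to constitutive ratio in FPKM was therefore higher in the Cre-labelled library for 1 pair and lower for 2. Psmb8 over Psmb5 was 1.74 in the control against 1.99 in the Cre-labelled library, a ratio of ratios of 1.14 (1.06 to 1.23). Psmb9 over Psmb6 was 0.810 and 0.708 (0.874, 0.823 to 0.929), and Psmb10 over Psmb7 was 2.58 and 2.29 (0.890, 0.834 to 0.949). No common direction was seen over the 3 pairs. The level of each ratio, though not its difference between libraries, depends on the gene length used, and per kilobase of coding transcript Psmb10 over Psmb7 was 1.14 and 1.01.

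**Figure D3:**
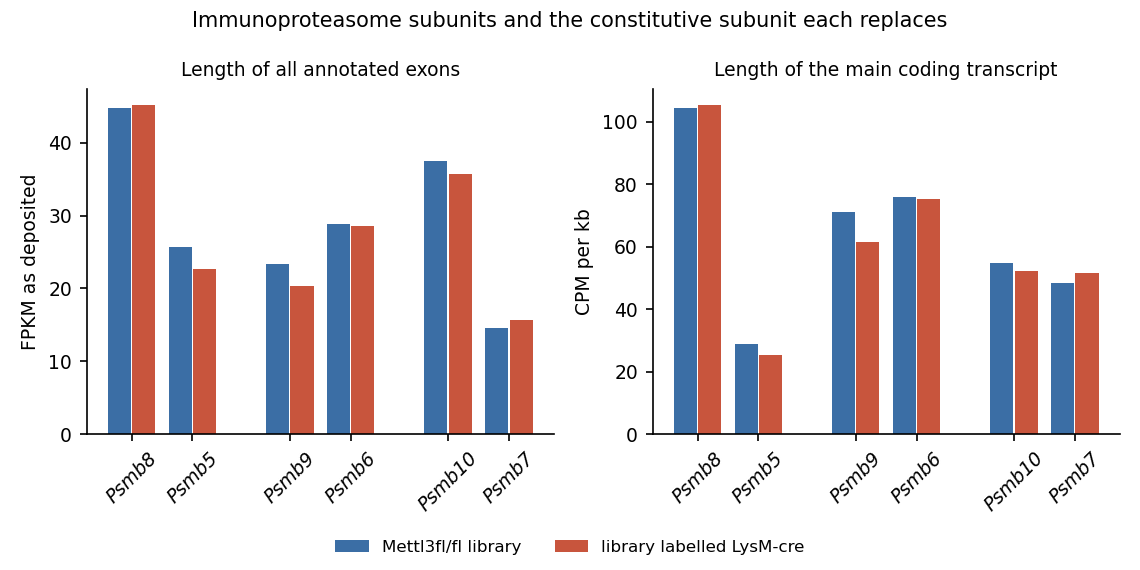
Levels of the 3 immunoproteasome subunits and the constitutive subunit each replaces, in the Mettl3fl/fl library (blue) and the library labelled LysM-cre (red), 1 library per bar. The left panel shows FPKM as deposited, the right panel CPM per kilobase of the main coding transcript, and Psmb6, which exceeds Psmb9 in both panels, is the one constitutive subunit above its counterpart.

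Other proteasome genes were more often higher than lower. Over 41 listed subunits and assembly factors without the immunoproteasome, 25 were higher and 16 lower in the Cre-labelled library (the log2 median was 0.03), and the interval was above 1 for 17 (30.1% of all genes) and below 1 for 7 (29.7%). Of 11 other subunits of the 20S core, 7 were higher (median 0.03), led by Psma3 at 11.4 and 12.6 FPKM (1.11, 1.06 to 1.17) and Psmb3 at 27.3 and 30.0 (1.10, 1.05 to 1.15). Of 18 subunits of the 19S regulatory particle, 12 were higher (median 0.04), with CPM ratios from 0.845 to 1.12, and the largest differences were those of Psmd11 (7.59 and 6.41 FPKM) and Adrm1 (10.9 and 9.56). Psme1 and Psme2, which form the interferon-inducible activator cap, stood at 48.9 and 48.9 FPKM (0.998, 0.966 to 1.03) and at 45.9 and 44.4 (0.968, 0.931 to 1.01). The activator and assembly list as a whole had 5 of 9 genes higher (median 0.03). Of these, Psmg2, an assembly chaperone, was the only one of the 41 past 20% lower or 25% higher (5.16 and 7.57 FPKM, CPM ratio 1.47, 1.32 to 1.63), and Psmg4 stood at 16.4 and 20.2 (1.23, 1.11 to 1.38).

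Nlrc5 (ENSMUSG00000074151, chr8:94434356-94527272, plus) stood at 25.3 FPKM in the control against 22.2 in the Cre-labelled library, on 14364 and 12551 counts (CPM ratio 0.875, 0.855 to 0.897). The direction was that of Tap1, Psmb9 and Tapbp, and, with smaller differences, of Psmb10 (0.953) and H2-D1 (0.975). The known Nlrc5 targets H2-K1 and B2m differed by less than 1%, as did Tap2 and Psmb8. Ciita, the class II counterpart, stood at 10.7 and 8.49 FPKM (0.792, 0.765 to 0.821), so the Nlrc5 to Ciita ratio was 2.36 in the control against 2.61 in the Cre-labelled library. Rfx5, which recruits both transactivators to promoters, stood at 4.84 and 4.48 FPKM (0.923, 0.863 to 0.988). The start of the Nlrc5 row overlaps the antisense row 9330175E14Rik (854 and 764 counts), and with both summed the ratio was 0.877 (0.856 to 0.897).

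The regulators of class I transcription spread more widely than the 10 genes, in both directions. Of 17 listed, 8 were higher and 9 lower (median log2 ratio −0.01), with 3 at least 25% higher (8.41% of all genes) and 2 at least 20% lower (7.7%). Irf1, an interferon-induced activator of class I and immunoproteasome genes, stood at 33.0 FPKM in the control against 62.0 in the Cre-labelled library (CPM ratio 1.87, 1.83 to 1.92). Irf8, a factor of monocytes, dendritic cells and B cells, stood at 45.7 and 21.5 FPKM (0.471, 0.460 to 0.482). Higher Irf1 thus stood beside class I pathway genes at equal or lower levels. The B cell marker Ighm was lower by a factor similar to that of Irf8 (2848 and 1360 FPKM, 0.477), as were 9 of 10 B and plasma cell markers in direction, whereas the plasma cell marker Jchain was higher (255 and 555 FPKM). The part of these cells in the Irf8 value was not tested.

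**Figure D4:**
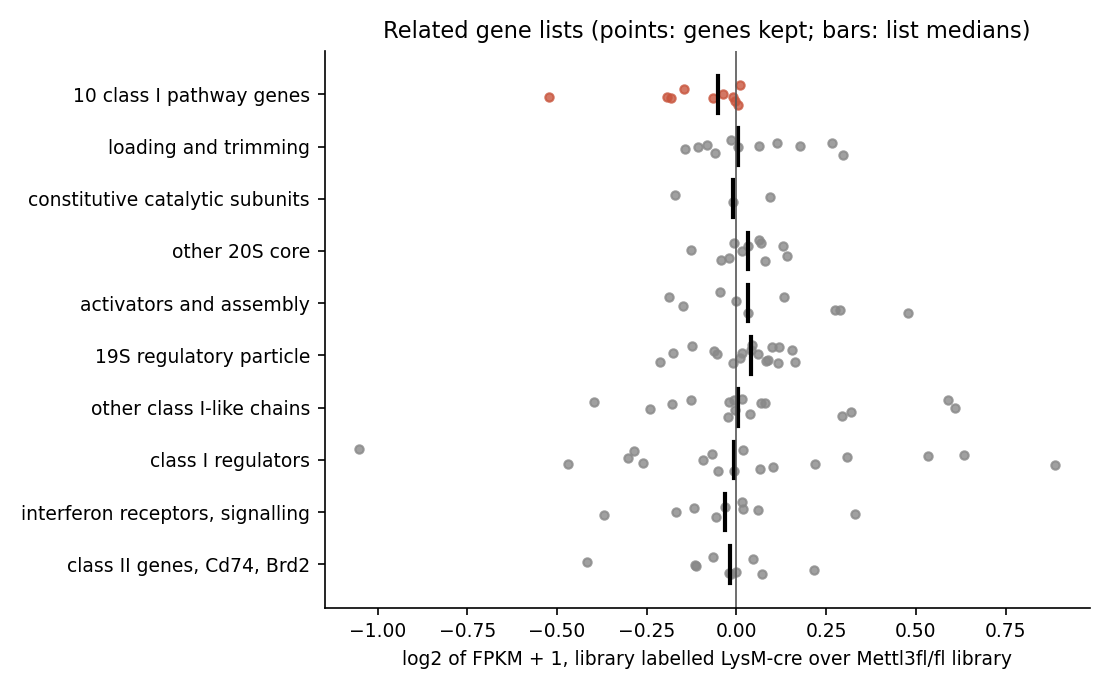
Log2 ratio of FPKM + 1, library labelled LysM-cre over Mettl3fl/fl library, for the 10 class I pathway genes (red) and 9 related lists (grey), with 1 point per gene that passed the minimum and a bar at the median of each list. List medians run from −0.05 (class I pathway genes) to 0.04 (19S regulatory particle), and the regulators spread most widely, from −1.05 (Irf8) to 0.89 (Irf1).

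Other class I and class I-like chains, which share B2m, had a median at the level of all genes. Of 21 listed, 16 passed the minimum of 1 FPKM. In the Cre-labelled library 8 of them were higher and 8 lower, and the log2 median was 0.00. The non-classical genes H2-Q4 (110 FPKM in the control against 108 in the Cre-labelled library), H2-Q6 (138 and 145), H2-Q7 (100.3 and 103) and H2-T23 (107 and 106) had CPM ratios from 0.986 to 1.05. Other non-classical genes lay further from 1, with H2-Q1 at 7.6 and 9.74 FPKM (1.28, 1.19 to 1.37), H2-Q10 at 36.5 and 33.4 (0.914, 0.889 to 0.939), H2-T10 at 9.60 and 8.36 (0.870, 0.817 to 0.925) and H2-T24 at 55.1 and 46.5 (0.844, 0.817 to 0.872). H2-M2 was the gene of the list at least 20% lower (7.7% of all genes were), at 2.03 and 1.3 FPKM on 211 and 136 counts (0.646, 0.517 to 0.805). Among the more distant relatives, Fcgrt, the neonatal Fc receptor that recycles IgG and albumin, stood at 42.7 and 65.7 FPKM (1.54, 1.49 to 1.59). Cd1d2, a lipid-presenting chain, stood at 1.06 and 2.11 FPKM on 109 and 216 counts (1.99, 1.57 to 2.52). These 2 were the genes of the list at least 25% higher in FPKM + 1 (8.41% of all genes), a cut that H2-Q1 narrowly missed despite its CPM ratio of 1.28. Most markers of macrophages (9 of 10), eosinophils (8 of 8) and erythroid cells and platelets (6 of 7) were also higher in the same library. The part of these cells in either value was not tested.

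By position, 4 of the genes form 1 cluster of 34.3 kb in the class II region in the order Psmb9, Tap1, Psmb8, Tap2. Psmb9 and Tap1, which share the divergent promoter printed above, had similar ratios (0.868 and 0.900), and their rows overlap by 212 bases on opposite strands. Their summed counts gave 0.889 (0.869 to 0.909). A part of the promoter or of the overlap in this likeness was not tested. Psmb8 and Tap2, next to Tap1 on its far side, had ratios of 1.01 and 0.992 with intervals spanning 1. The cluster therefore fell into a pair below 1 and a pair at 1. Across the 401 kb from Tapbp to H2-Eb1, 32 rows had a mean of 1 FPKM or more. The 26 that are not class I pathway genes had 15 lower and 11 higher and a median log2 ratio of −0.01, so the region as a whole lay at the level of all genes. Among these 26, H2-DMa, which loads class II molecules, was at least 20% lower (42.1 and 31.2 FPKM, 0.742, 0.720 to 0.765), as were the predicted rows Gm20427 (0.315) and Gm20513 (0.541). The zinc transporter gene Slc39a7 was at least 25% higher (1.26, 1.21 to 1.32). Over all genes, 7.7% were at least 20% lower and 8.41% at least 25% higher. Gm20427, Gm20513 and Slc39a7 were singled out after their values were seen.

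**Figure D5:**
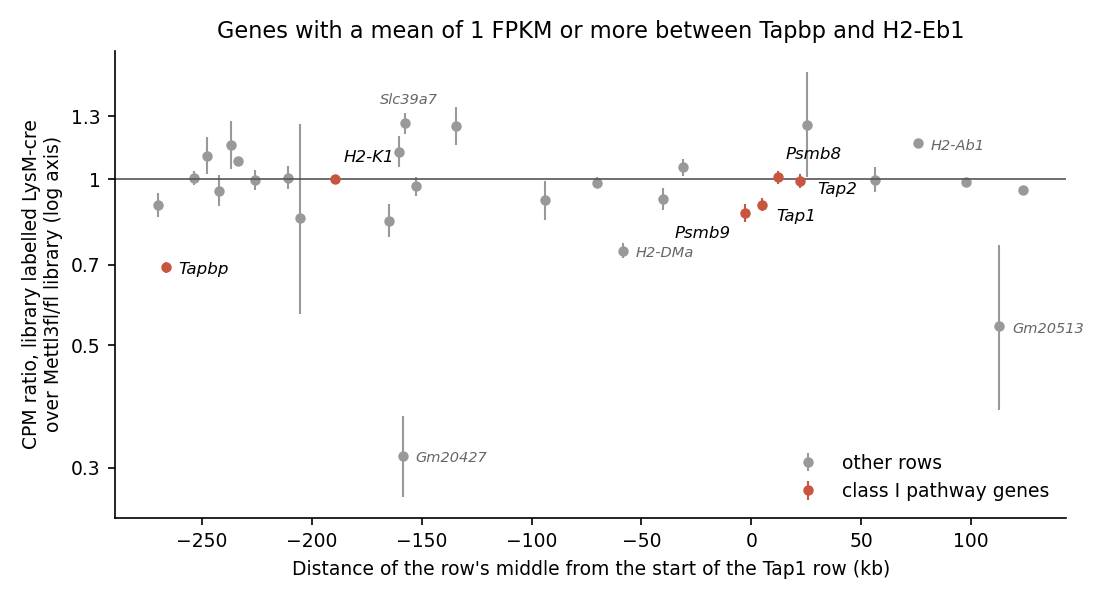
CPM ratio (log axis) of each gene row with a mean of 1 FPKM or more between Tapbp and H2-Eb1 against the distance of its middle from the start of the Tap1 row in kb, with class I pathway genes in red, other rows in grey and bars for 95% counting intervals. Psmb9 (0.868) and Tap1 (0.900) lie below the line at 1, Psmb8 and Tap2 on it, and Tapbp (0.692) lies apart from the rows around it.

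The order of the 10 genes by FPKM was the same in both libraries: B2m, H2-D1, H2-K1, Tapbp, Psmb8, Tap2, Psmb10, Tap1, Nlrc5, Psmb9. Between libraries only the values of Nlrc5 (22.2 to 25.3) and Psmb9 (20.3 to 23.3) overlapped, and with 1 library a genotype there is no spread to rank the other neighbours against. The order depends on the length by which counts are divided. The deposited FPKM agreed within 1% with division by all annotated exon bases of a gene, retained introns included, for 97.2% of 12007 genes with counts above 50. This length was 3660 bases for Psmb9 and 3381 for Psmb8, while their main coding transcripts hold 1352 and 1628 bases. For B2m both lengths were 860. In CPM per kilobase of the main coding transcript, Psmb9 moved from last place (71.0 in the control against 61.6 in the Cre-labelled library) to above Tap1 (61.7 and 55.5), Psmb10 (54.8 and 52.3), Tap2 (47.3 and 47.0) and Nlrc5 (34.8 and 30.4). Tap2 then lay below Tap1, with a Tap2 to Tap1 ratio of 0.767 and 0.846 in place of the 1.29 and 1.43 found with FPKM, and Tapbp (112 and 77.8) changed places with Psmb8 (104 and 105) between libraries. The excess of H2-D1 over H2-K1 was 2.78-fold and 2.71-fold, and that of B2m over H2-D1 was 1.97-fold and 2.01-fold. On this scale the Psmb8 to Psmb5 ratio was 3.62 and 4.13, the Psmb9 to Psmb6 ratio 0.935 and 0.817, and the Psmb10 to Psmb7 ratio 1.14 and 1.01. Which transcripts of each gene were present was not measured here, so levels between genes are tied to the length chosen, whereas the ratios of 1 gene between the libraries do not depend on it.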

How the data were processed

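Poly(A) RNA of 1 library per genotype was sequenced as paired ends of 150 bases, with second strands marked by dUTP, per the labels' protocols. The submitters' processing notes name DESeq2, edgeR, StringTie 1.3.4d, HISAT2 2.0.4 and cutadapt 1.9, with build mm10 and no roles. Per the file headers, the deposited table gives each library a count, which is a whole number without normalization, and an FPKM. The authors' FPKM is scaled to depth and to the length of the row. The treatment of strand and of reads that fit several rows was not given in the sources used here. Where the count was 0 the table lists 0.0001 FPKM, which was read as 0. Another 8 value columns, of 4 libraries without a label, were left out.

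The log2 ratio compares FPKM + 1 of the library labelled LysM-cre with FPKM + 1 of the control and is too small for low genes. Rows below a mean of 1 FPKM were dropped. CPM is the count scaled to the library total. Its ratio between libraries has an exact 95% interval (Clopper-Pearson on the share of the summed counts), and a ratio between 2 genes has an exact conditional odds-ratio interval. Both cover counting error only. They can be too narrow even for that, since PCR copies of 1 molecule are counted separately. The code of the CPM interval was tested on counts simulated with counting error alone. That of the odds-ratio interval was not tested.

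The genes named are the 10 class I pathway genes, Psmb5, Psmb6, Psmb7, Irf1, Ciita, Rfx5, Calr, Canx, Pdia3, Erap1, Tapbpl, Psme1, Psme2, Mettl3, up to 2 kept genes per list with the largest absolute log2 ratio, and rows that overlap or resemble a class I pathway gene. The value of 1 regulator in the rule is not reported here. Names outside this rule are Slc39a7, Gm20427, Gm20513, Psmg3 and Krt19, and Socs1, Ptpn2, Cd74, Brd2 and H2-Eb1, which only describe a list or a region. The genes and all lists were chosen with earlier results of these data known. Coordinates are those of the deposited table. GENCODE M21 on the same build held all 10 identifiers, 8 with the same coordinates, and gave exon and transcript lengths (main transcript: APPRIS principal, then longest coding sequence). Motifs were searched on both strands of RefSeq promoter windows. Software was Python 3.11.15 with scipy 1.17.1, numpy 2.4.6, Biopython 1.88, pandas 2.3.3 and matplotlib 3.10.9, and edgeR 4.0.16 in R 4.3.3 (TMM factors for 1 alternative).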

Additional observations from a re-analysis of the deposited data

How the results depend on the processing

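Other pseudocounts, TPM, CPM, TMM and median-ratio scaling, a total without immunoglobulin and mitochondrial rows, and summed overlapping rows were tried. Of 80 such values of the 10 genes, 76 moved by less than the gene's counting error. Tapbp ran from −0.55 to −0.47 on the log2 scale, the latter with overlapping rows summed. TPM moved the median of all genes to −0.02 and with it H2-K1 to −0.02 and Psmb8 to −0.01, which turned their sign (H2-K1 also with median-ratio factors), so neither has a direction. The median of the 10 genes was −0.11 without H2-K1 and H2-D1. Of protein-coding rows, 4.57% were at least 20% lower and 5.54% at least 25% higher. At 1.5-fold 3.28% of all genes kept were lower and 3.19% higher, and at 2-fold 1.18% and 1.31%, with 0 of the 10 genes lower at either. Division by the length of the main coding transcript, chosen after seeing the data, gave 3.62 (control) and 4.13 (Cre-labelled) for Psmb8 over Psmb5, 0.935 and 0.817 for Psmb9 over Psmb6, and 1.14 and 1.01 for Psmb10 over Psmb7, and turned Tap2 over Tap1 to 0.767 and 0.846. No paired analysis was possible because each genotype has 1 library, and none could be left out. Depth did not limit these abundant genes, and the missing replicates did.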

Other observations

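The interferon receptors and their kinases, listed together with the inhibitors Socs1 and Ptpn2, differed little as a list and more by gene. Of 9 listed, 4 were higher in the Cre-labelled library and 5 lower (median log2 ratio −0.03). Ifngr1, the ligand-binding chain of the interferon-gamma receptor, stood at 95.7 FPKM in the control against 73.8 in the Cre-labelled library (CPM ratio 0.771, 95% counting interval 0.754 to 0.788). Ifnar1, a chain of the type I interferon receptor, stood at 18.3 and 23.3 FPKM (1.27, 1.23 to 1.31). The receptor chains of the 2 interferon types thus lay on opposite sides of 1.

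Among the class II genes, Cd74 and Brd2, neighbours or counterparts of the class I pathway, 3 of 10 were higher and 7 lower (median log2 ratio −0.02). H2-Ab1, a class II chain, stood at 228 FPKM in the control against 265 in the Cre-labelled library (1.16, 1.15 to 1.18), while Ciita, the class II transactivator, and H2-DMa were lower. The B and plasma cell markers were lower in 9 of 10 cases in the same library. Of the macrophage markers 9 of 10 were higher, and of the dendritic cell markers 4 of 6 were lower. The part of any of these cells in the class II values was not tested. With 1 library per genotype none of these differences has a replicate check.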
